A study of Mus musculus with 18 samples.

Results

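The transcripts examined here are 37 genes of glycolysis and of the response to low oxygen, listed by symbol and looked up in each of the deposited gene tables. All 37 were found among the 54309 genes of the lymphocyte table and among the 13759 genes of the macrophage table. Of them, 26 serve glucose uptake, glycolysis and the use of pyruvate, and 11 serve oxygen sensing and the hypoxia response. Bulk RNA-seq had been done on cells sorted from mice carrying liver metastases of MC38, a mouse colon adenocarcinoma cell line. The lymphocyte experiment holds 12 libraries, 3 each of NK cells of the metastasis-free liver (MFL NK cells), CD49a- and CD49a+ NK cells of the liver metastases (LM) and ILC1 of the MFL, and the macrophage experiment holds 3 libraries each of F4/80low and F4/80high metastasis-associated macrophages (MAMs). The comparisons ask how the transcripts of this pathway differ between NK cells of the metastasis and of the adjacent liver, between NK cells with and without CD49a, between NK cells and ILC1, and between both macrophage subsets.

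All groups came from female C57BL6/J mice, for which the labels name no engineered allele. The mice received MC38 cells by injection into the spleen at 8 to 10 weeks of age, 20 days before the sort. Lymphocytes were lin- CD45+ NKp46+, with CD49a- CD49b+ for NK cells, CD49a+ CD49b+ for CD49a+ NK cells and CD49a+ CD49b- for ILC1, and each library was a pool of 6 to 8 MFL or LM samples. The titles of the CD49a+ NK libraries call them ILC1, and they were assigned here by their population label. MAMs were lin- CD45+ CD11b+ and were split by F4/80, the macrophage surface protein encoded by Adgre1. LM were digested with an enzyme and MFL were mashed, so that site and dissociation cannot be told apart. Metastases were implanted from 1 cell line, every mouse carried a tumor, and oxygen levels and metabolic flux were not analysed here.

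Glycolysis turns glucose into pyruvate in the cytosol and yields ATP without oxygen. Pyruvate is either reduced to lactate and exported, or enters mitochondria through pyruvate dehydrogenase. The hypoxia-inducible factor HIF is a transcription factor whose alpha subunit, encoded by Hif1a, is marked for degradation by the oxygen-dependent prolyl hydroxylases of the Egln family. At low oxygen the subunit is spared and HIF raises transcription of glucose transporters, most glycolytic enzymes, Vegfa, Bnip3 and its own regulators Egln1 and Egln3. Macrophages and NK cells are known to raise glycolysis on activation, and in macrophages Hif1a is also induced by inflammatory signals at normal oxygen. Solid tumors and metastases often hold regions of low oxygen.

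Library totals were 8795721 to 14386834 counts for lymphocytes and 21278959 to 32267015 counts for MAMs. Libraries of the LM populations varied far more than the others, with an edgeR biological coefficient of variation of 1.22 among LM CD49a- NK cells and 1.07 among LM CD49a+ NK cells, against 0.51 for MFL NK cells, 0.65 for MFL ILC1 and 0.16 within each MAM subset. Each of the 37 members passed the filter on low counts for MAMs, and 33 did for lymphocytes. The other 4 members, Eno2, Ldhb, Adm and P4ha2, were listed at 0 in most or all lymphocyte libraries. The surface gates were visible in the transcripts, since Adgre1 stood at 124 to 160.4 CPM (counts scaled to the library size) in F4/80low and at 806 to 1167 CPM in F4/80high MAMs. The list of 6 T cell genes summed to 247 to 681 CPM in MFL ILC1 and to at most 35.7 CPM in any NK library. In ILC1 that sum was almost wholly Cd3g, a CD3 chain gene, at 224 to 668 CPM, and Cd3d, Cd3e, Cd4, Cd8a and Trac each averaged at most 5.50 CPM. Nothing in the labels says whether the 3 macrophage libraries of a subset came from separate mice, and p-values measure the spread between the sequenced libraries.

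The most members were called between the macrophage subsets. Their libraries varied less and held more counts than the lymphocyte libraries, so numbers of calls do not rank the experiments. F4/80high MAMs held lower levels of most glycolytic enzymes and of most hypoxia-response transcripts than F4/80low MAMs, and the falls were steepest for Aldoc, Eno2, Ddit4, Egln3, Vegfa, Pfkp, Eno3 and Slc2a1. Of the 37 members, 26 were called lower and 4 higher in F4/80high MAMs at an adjusted p under 0.1 in edgeR's quasi-likelihood test, and 7 were not called. The libraries of both subsets overlapped for 1 called member, Pgam1, and for none of the others called. No count of overlap over all genes is given here, so this describes the called members only. Over all 13759 genes tested, 27.1% were called lower and 27.8% higher. The median log2 fold change (F4/80high over F4/80low, as in all MAM comparisons) was -0.65 over the members and 0.01 over all genes. Among the 26 glycolysis members 18 were lower, 3 higher and 5 not called, with a median of -0.60, and among the 11 hypoxia members 8 were lower, 1 higher and 2 not called, with a median of -0.97. In bulk samples, fewer cells of a type and less RNA per cell cannot be told apart.

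**Figure D1:**
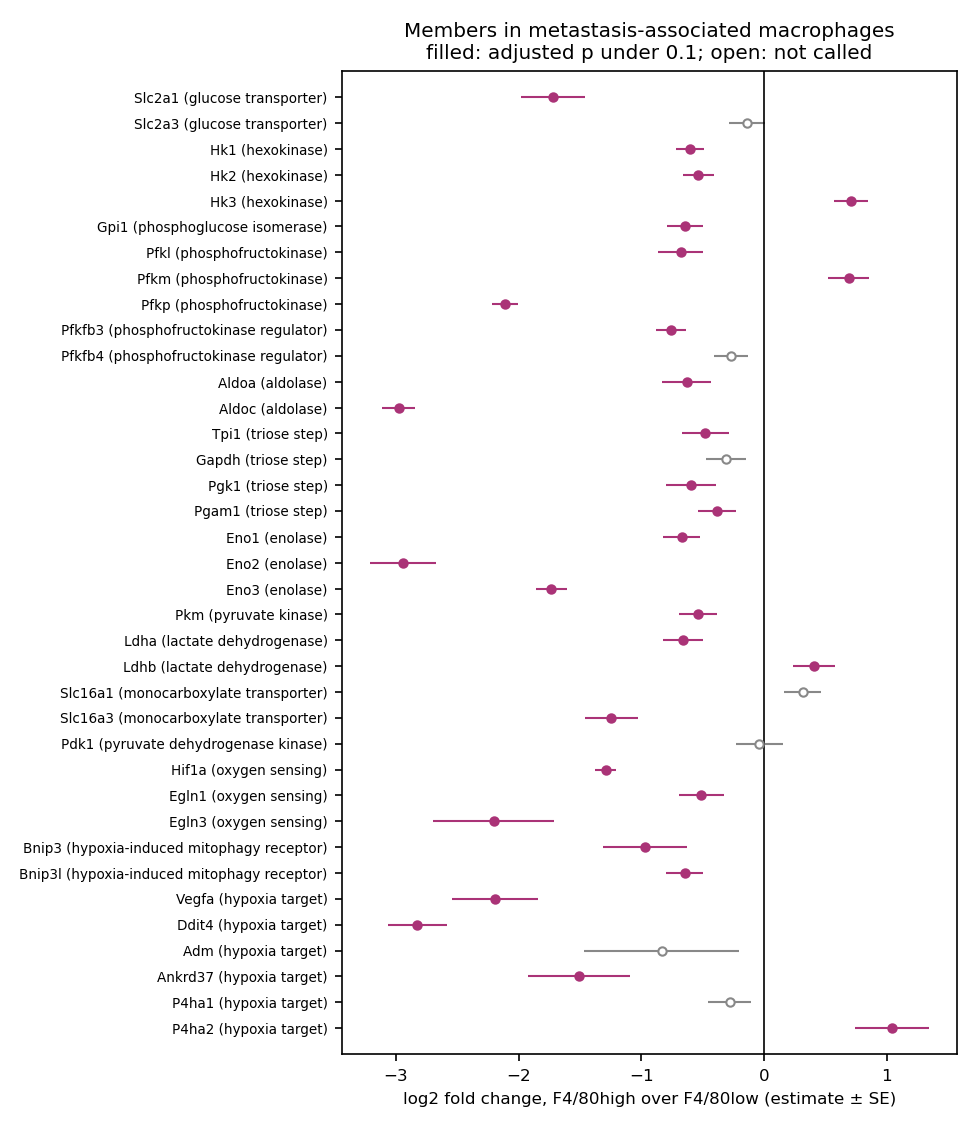
Log2 fold change of each of the 37 members in F4/80high over F4/80low MAMs, with the standard error as the bar. Points left of 0 were lower in F4/80high MAMs. Called members (26 lower, 4 higher) and uncalled ones (7) are marked apart, and the steepest fall was that of Aldoc at -2.98.

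Glucose enters these cells through facilitated transporters. Slc2a1, encoding the transporter GLUT1 (chr4:118965908-118996365 on the plus strand of GRCm39), stood at 274, 253 and 511 CPM in F4/80low and 87.5, 112 and 115 CPM in F4/80high MAMs, a log2 fold change of -1.72 ± 0.26 (SE, adjusted p = 0.000986). Its highest F4/80high library lay under the lowest F4/80low one, and the mean level was 3.29 times higher in F4/80low MAMs. Slc2a3, encoding the high-affinity transporter GLUT3, stood at 13.4, 17.1 and 11.8 CPM in F4/80low and 12.9, 12.8 and 12.7 CPM in F4/80high MAMs in overlapping groups and was not called. Slc2a1 made up 97.2% ± 1.3 (SD, n = 3) of the length-scaled transcripts of both transporters in F4/80low and 92.8% ± 1.1 in F4/80high MAMs.

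Hexokinases trap glucose inside the cell as glucose phosphate, and their isozymes moved in opposite directions. Hk1, the isozyme of most tissues, stood at 139, 133 and 174 CPM in F4/80low and 93.1, 95.6 and 104 CPM in F4/80high MAMs, a log2 fold change of -0.60 ± 0.11 (SE, adjusted p = 0.0029). Hk2, the inducible isozyme bound to mitochondria, stood at 182, 207 and 242 CPM in F4/80low and 130.0, 143 and 162 CPM in F4/80high MAMs, a log2 fold change of -0.54 ± 0.13 (SE, adjusted p = 0.00835). Both were lower in each F4/80high library than in any F4/80low library. Hk3, a hexokinase of myeloid cells, stood at 116, 86.4 and 127 CPM in F4/80low and 183, 168 and 187 CPM in F4/80high MAMs, a log2 fold change of 0.71 ± 0.14 (SE, adjusted p = 0.0034), and its groups did not overlap in the other direction. On the scale of CPM per kilobase of exon, Hk2 led in F4/80low MAMs with 39.2% ± 3.8 of the hexokinase transcripts, ahead of Hk3 with 34.8% ± 4 and Hk1 with 26.01% ± 0.29, but Hk1 led, with 38.4%, when the longest transcript was used as the length. In F4/80high MAMs Hk3 held 56.4% ± 2.2, Hk2 26.7% ± 1.9 and Hk1 16.9% ± 0.39 (SD, n = 3 each). Gpi1, the isomerase that follows, stood at 883, 809 and 1206 CPM in F4/80low and 604, 612 and 636 CPM in F4/80high MAMs, a log2 fold change of -0.65 ± 0.15 (SE, adjusted p = 0.00728), with no overlap.

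Phosphofructokinase commits sugar to glycolysis, and its platelet-type subunit Pfkp (chr13:6629798-6698970 on the minus strand of GRCm39) showed one of the sharpest contrasts. Pfkp stood at 312, 270.2 and 289 CPM in F4/80low and 75.6, 65.7 and 60.6 CPM in F4/80high MAMs, a log2 fold change of -2.11 ± 0.11 (SE, adjusted p = 4.18e-06), a mean 4.32 times higher in F4/80low MAMs. The liver-type subunit Pfkl stood at 201, 199 and 312 CPM in F4/80low and 126, 163 and 155 CPM in F4/80high MAMs, a log2 fold change of -0.68 ± 0.19 (SE, adjusted p = 0.0167). Neither gene's groups overlapped, and the fall of Pfkl shrank to -0.43 without F4/80low replicate 3. The muscle-type subunit Pfkm was low but moved the other way, from 10.9, 7.14 and 8.73 CPM in F4/80low to 14.3, 14.99 and 13.9 CPM in F4/80high MAMs, a log2 fold change of 0.69 ± 0.17 (SE, adjusted p = 0.0092). Per length, Pfkl made up 49.2% ± 6.7 of the phosphofructokinase transcripts in F4/80low and 66.7% ± 4.7 in F4/80high MAMs, against 48.1% ± 6.3 and 23.96% ± 4.2 for Pfkp (SD, n = 3), shares for which no test was run. With the longest transcript as the length, the order in F4/80low MAMs turned, with 52.0% for Pfkp and 45.4% for Pfkl. Pfkfb3 makes the sugar phosphate that activates phosphofructokinase, and stood at 171, 147 and 161 CPM in F4/80low and 93.7, 79.7 and 109.9 CPM in F4/80high MAMs, a log2 fold change of -0.76 ± 0.12 (SE, adjusted p = 0.00142). Its relative Pfkfb4 stood at 91.4, 98.5 and 99.6 CPM in F4/80low and 81.1, 63.7 and 95.3 CPM in F4/80high MAMs, a log2 fold change of -0.27 ± 0.14 (SE, adjusted p = 0.143), and was not called by edgeR with all libraries, though limma-voom called it (-0.26, adjusted p = 0.0761).

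**Figure D2:**
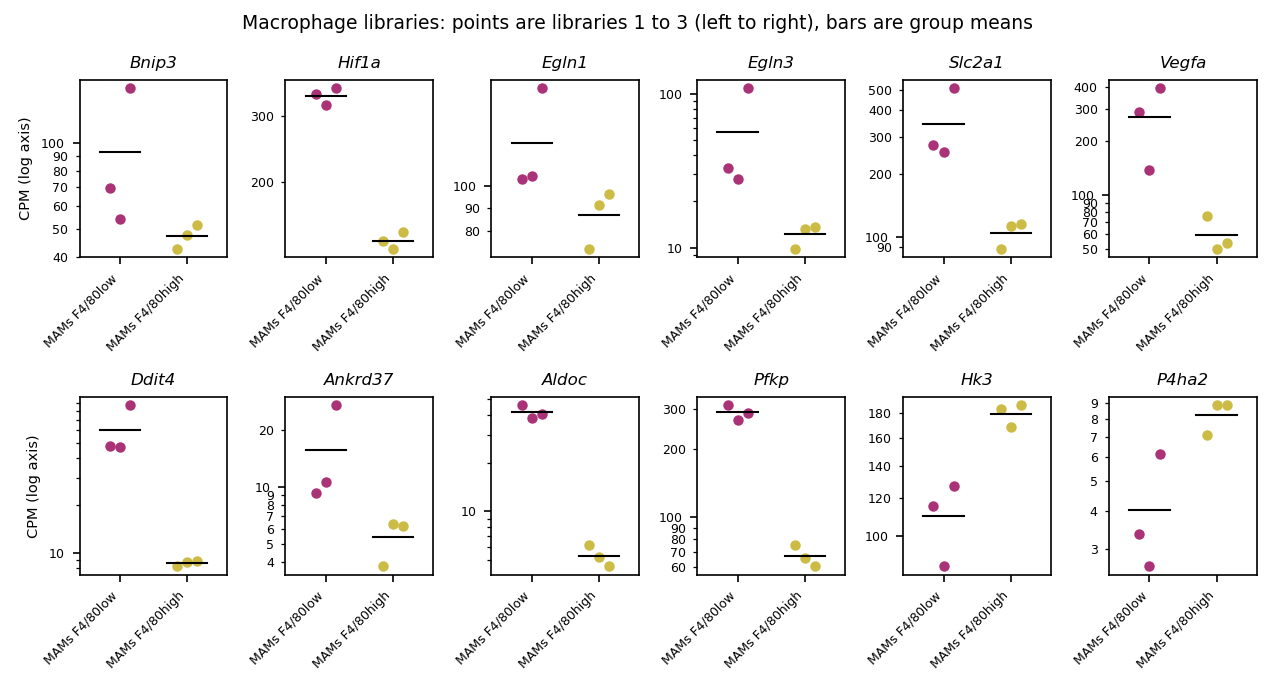
CPM of 12 members in each of the 6 MAM libraries, each panel on its own log axis, with a point per library and the group mean as a bar. For Pfkp the F4/80low libraries lie between 270.2 and 312 CPM and the F4/80high libraries between 60.6 and 75.6 CPM.

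The lower part of the pathway, from aldolase to pyruvate kinase, holds the most abundant members, and their falls were shallow except for the minor isozymes. Aldoa, the main aldolase, which splits the sugar, stood at 1169.6, 1093 and 1861 CPM in F4/80low and 796, 972 and 898 CPM in F4/80high MAMs, a log2 fold change of -0.63 ± 0.20 (SE, adjusted p = 0.0301). Aldoc, an isozyme better known from brain, stood at 45.7, 38.3 and 40.6 CPM in F4/80low and 6.17, 5.17 and 4.54 CPM in F4/80high MAMs, a log2 fold change of -2.98 ± 0.14 (SE, adjusted p = 2.74e-06). The 3 F4/80low libraries were above all F4/80high libraries for both aldolases, by a mean of 7.88 times for Aldoc, and the log2 fold change of Aldoa moved to -0.35 without F4/80low replicate 3. Tpi1, the triose isomerase, stood at 479, 429 and 737 CPM in F4/80low and 361, 421 and 397 CPM in F4/80high MAMs, a log2 fold change of -0.48 ± 0.19 (SE, adjusted p = 0.0692). Its call was lost in 3 of 6 omissions of 1 library, with adjusted p = 0.179 without F4/80low replicate 3, 0.176 without F4/80high replicate 1 and 0.123 without F4/80high replicate 3. Gapdh, the dehydrogenase that yields NADH, stood at 3239, 2824 and 4242 CPM in F4/80low and 2775, 3041 and 2495 CPM in F4/80high MAMs, a log2 fold change of -0.31 ± 0.16 (SE, adjusted p = 0.145). Its groups overlapped and it was not called, except without F4/80low replicate 2 (-0.43, adjusted p = 0.0671) and by DESeq2 (-0.33, adjusted p = 0.0681).

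Pgk1, which makes the first ATP of the pathway, stood at 569, 532 and 926 CPM in F4/80low and 428, 505 and 409 CPM in F4/80high MAMs, a log2 fold change of -0.59 ± 0.21 (SE, adjusted p = 0.0427). The groups did not overlap, but the call was lost without F4/80high replicate 1 (adjusted p = 0.11) or replicate 3 (adjusted p = 0.112), and the log2 fold change was -0.30 without F4/80low replicate 3. Pgam1, the mutase of the next step, stood at 593, 570.0 and 822 CPM in F4/80low and 458, 572 and 490.4 CPM in F4/80high MAMs, a log2 fold change of -0.38 ± 0.16 (SE, adjusted p = 0.0736), with an overlap of the groups. Its call was lost without F4/80low replicate 3 (-0.20, adjusted p = 0.232), F4/80high replicate 1 (adjusted p = 0.203) or F4/80high replicate 3 (adjusted p = 0.149). Eno1, the main enolase, stood at 1730.3, 1696 and 2370.1 CPM in F4/80low and 1118, 1344 and 1179.8 CPM in F4/80high MAMs, a log2 fold change of -0.67 ± 0.15 (SE, adjusted p = 0.00642). The minor enolases fell further: Eno2, known as neuronal enolase, stood at 4.79, 3.76 and 3.72 CPM in F4/80low and 0.495, 0.602 and 0.486 CPM in F4/80high MAMs, a log2 fold change of -2.94 ± 0.27 (SE, adjusted p = 6.21e-05), and Eno3, known as muscle enolase, at 39.2, 30.8 and 40.4 CPM in F4/80low and 10.4, 11.8 and 11.03 CPM in F4/80high MAMs, a log2 fold change of -1.73 ± 0.13 (SE, adjusted p = 2e-05). No library of one subset reached into the other for any enolase, but Eno1 still supplied 95.7% ± 0.67 of the length-scaled enolase transcripts in F4/80low and 98.04% ± 0.065 in F4/80high MAMs (SD, n = 3). Pkm, the pyruvate kinase that ends the pathway, stood at 1983, 1859 and 2763 CPM in F4/80low and 1470.0, 1599 and 1473 CPM in F4/80high MAMs, a log2 fold change of -0.54 ± 0.15 (SE, adjusted p = 0.0195), without overlap, and at -0.34 without F4/80low replicate 3.

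Pyruvate is next turned into lactate or burnt. Ldha, the lactate dehydrogenase subunit that favors lactate, stood at 1058, 976 and 1479 CPM in F4/80low and 700.4, 825 and 701 CPM in F4/80high MAMs, a log2 fold change of -0.66 ± 0.16 (SE, adjusted p = 0.0106), without overlap. Ldhb, the subunit that favors pyruvate, was scarce and stood at 9.52, 12.3 and 13.4 CPM in F4/80low and 14.2, 18.6 and 13.8 CPM in F4/80high MAMs, a log2 fold change of 0.41 ± 0.17 (SE, adjusted p = 0.0846). Its call was lost in 4 of 6 omissions, without F4/80low replicate 1 (adjusted p = 0.25) or 2 (adjusted p = 0.128) and without F4/80high replicate 1 (adjusted p = 0.104) or 2 (adjusted p = 0.265). Slc16a3 encodes MCT4, the exporter of lactate from glycolytic cells, and stood at 295, 279 and 487 CPM in F4/80low and 126, 162 and 161 CPM in F4/80high MAMs, a log2 fold change of -1.24 ± 0.21 (SE, adjusted p = 0.00186). Slc16a1, encoding the related transporter MCT1, stood at 18.7, 20.01 and 19.8 CPM in F4/80low and 22.5, 30.4 and 20.04 CPM in F4/80high MAMs, a log2 fold change of 0.32 ± 0.15 (SE, adjusted p = 0.119), and was called only without F4/80high replicate 3 (0.43, adjusted p = 0.0408). Slc16a3 made up 88.9% ± 2.8 of the length-scaled transcripts of both carriers in F4/80low and 74.2% ± 4.1 in F4/80high MAMs. Pdk1, the kinase that shuts pyruvate dehydrogenase, stood at 52.6, 53.7 and 83.8 CPM in F4/80low and 53.1, 60.4 and 71.3 CPM in F4/80high MAMs, and its overlapping groups were not called.

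Among the oxygen sensors, Hif1a itself (chr12:73948149-73996321 on the plus strand of GRCm39) differed clearly between the subsets. It stood at 344, 321 and 357 CPM in F4/80low and 139, 132 and 147 CPM in F4/80high MAMs, a log2 fold change of -1.29 ± 0.09 (SE, adjusted p = 1.26e-05), a mean 2.44 times higher in F4/80low MAMs with little spread inside either group. Egln1, the main hydroxylase that marks HIF, stood at 104, 105 and 162 CPM in F4/80low and 73.3, 90.98 and 96.2 CPM in F4/80high MAMs, a log2 fold change of -0.51 ± 0.18 (SE, adjusted p = 0.0504), and lost its call without F4/80low replicate 3 (-0.27, adjusted p = 0.146) or F4/80high replicate 1 (-0.40, adjusted p = 0.153). Egln3, the hydroxylase most strongly induced by HIF, stood at 33.1, 28.1 and 109 CPM in F4/80low and 9.77, 13.3 and 13.7 CPM in F4/80high MAMs, a log2 fold change of -2.20 ± 0.49 (SE, adjusted p = 0.0066). F4/80low replicate 3 was far above its group for Egln3, and without it the log2 fold change was -1.31 and still called.

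The hypoxia targets outside metabolism fell with few exceptions. Vegfa, the angiogenic growth factor (chr17:46327919-46343309 on the minus strand of GRCm39), stood at 289, 137 and 394 CPM in F4/80low and 76.2, 49.5 and 53.7 CPM in F4/80high MAMs, a log2 fold change of -2.19 ± 0.35 (SE, adjusted p = 0.00129). Ddit4, an inhibitor of mTOR signaling, stood at 47.9, 47.4 and 86.8 CPM in F4/80low and 8.15, 8.64 and 8.82 CPM in F4/80high MAMs, a log2 fold change of -2.82 ± 0.24 (SE, adjusted p = 4.84e-05). F4/80low libraries exceeded F4/80high ones on average 4.57 times for Vegfa and 7.09 times for Ddit4, with no overlap for either. The mitophagy receptor Bnip3 stood at 69.8, 54.3 and 155 CPM in F4/80low and 42.5, 47.6 and 51.7 CPM in F4/80high MAMs, a log2 fold change of -0.97 ± 0.34 (SE, adjusted p = 0.0452), and its relative Bnip3l at 103, 85.7 and 118 CPM in F4/80low and 68.5, 53.4 and 73.4 CPM in F4/80high MAMs, a log2 fold change of -0.65 ± 0.15 (SE, adjusted p = 0.00781). Bnip3 lost its call without F4/80high replicate 1 (-0.90, adjusted p = 0.116) and moved to -0.39 without F4/80low replicate 3. Ankrd37, an ankyrin-repeat protein known as a direct HIF target, stood at 9.23, 10.6 and 26.9 CPM in F4/80low and 3.78, 6.31 and 6.16 CPM in F4/80high MAMs, a log2 fold change of -1.51 ± 0.41 (SE, adjusted p = 0.0167), and at -0.86 without F4/80low replicate 3. The exception among the called ones was P4ha2, a catalytic subunit of the prolyl hydroxylase that matures collagen, which rose from 3.35, 2.63 and 6.14 CPM to 7.07, 8.86 and 8.85 CPM, a log2 fold change of 1.04 ± 0.30 (SE, adjusted p = 0.0213). P4ha1, the other such subunit, stood at 152, 183 and 243 CPM in F4/80low and 135, 172 and 169 CPM in F4/80high MAMs, a log2 fold change of -0.28 ± 0.17 (SE, adjusted p = 0.213), and was called only without F4/80low replicate 1 (-0.43, adjusted p = 0.0657) and with the replicate number as a block (-0.26, adjusted p = 0.0843). Adm, encoding the vasodilator adrenomedullin, stood at 1.71, 0.649 and 4.71 CPM in F4/80low and 0.901, 1.70 and 1.30 CPM in F4/80high MAMs and was not called.

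Leaving out 1 library at a time kept 24 of the 30 MAM calls in all 6 omissions, with 21 to 28 members called lower and 3 to 5 higher. Other transcripts moved with the same split of the libraries. The 6 dendritic cell genes summed to 247 to 372 CPM in F4/80low and to 20.8 to 23.3 CPM in F4/80high MAMs, with 5 of 6 called lower and Flt3 at 72.3 to 132 against 1.72 to 2.61 CPM. The NK cell and ILC1 list summed to 86.7 to 147 against 15.6 to 23.7 CPM, the neutrophil list to 95.04 to 129.9 against 73.9 to 104 CPM, and the 10 macrophage genes to 10924 to 13912 against 19841 to 25852 CPM. The neutrophil sums hide a split, since 4 of the 5 neutrophil genes tested were called lower and 1 had a log2 fold change above 0. Their median log2 fold change was -4.41. Genes induced by tissue dissociation summed to 9762 to 13449 against 4521 to 6747 CPM (10 of 12 called lower), and the 15 cell cycle genes to 886 to 1049.8 against 2024 to 2438 CPM (15 called higher). Of the tumor epithelium list only 2 of 8 genes are among the 13759 genes held for MAMs, none of which summed to less than 37 counts. Cdh1 stood at 189 to 264 against 8.06 to 11.5 CPM and Epcam at 7.70 to 17.2 against 0.162 to 0.360 CPM. The keratin and claudin genes of that list have no MAM values. The part of these transcripts in the members' differences was not tested.

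Members were also examined, whether called or not, for the letters of the HIF-binding core motif. It was searched as ACGTG and GCGTG on both strands in the 250 bases before each annotated start. RefSeq promoter sequences of the GRCm38.p6 build were held for 35 of the 37 members, with no entry for Slc2a3 and Bnip3l. At least 1 of their starts held the motif in 32 of 35 members (91.4%), the others being Gpi1, Tpi1 and Eno2. The share was 41.5% of the 27025 genes in the table and 60.7% of the 10073 genes that were also tested for MAMs. The members include genes known to be raised by HIF, so their share is not independent of how the list was chosen. Median GC content was 60.4% for the members' windows, 52.4% for all windows and 59.6% for those of tested genes. Of the matched members called lower in F4/80high MAMs, 22 of 25 held the motif, as did 4 of 4 called higher and 6 of 6 not called. A match describes letters only, and binding was not measured.

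Windows of 5 members are printed because they include steep falls in 4 different roles and the member with the largest rise. Each runs 5′ to 3′ along its gene and ends at the base before the start, and capitals mark ACGTG or GCGTG or their reverse complements. Positions are those of the first capital, counted back from -1. Each printed gene has 1 start among the sequences held and at least 1 match. Eno2, a steep fall with 1 start and no match, is not printed. The windows are Ddit4 (chr10:59951771-59952020, minus strand, motif at -187 and -115), Egln3 (chr12:54203875-54204124, minus strand, motif at -229), Pfkp (chr13:6648772-6649021, minus strand, motif at -136, -68 and -23), Slc2a1 (chr4:119108495-119108744, plus strand, motif at -61 and -36) and P4ha2 (chr11:54100674-54100923, plus strand, motif at -107, -78 and -69), all in GRCm38.p6.
Ddit4: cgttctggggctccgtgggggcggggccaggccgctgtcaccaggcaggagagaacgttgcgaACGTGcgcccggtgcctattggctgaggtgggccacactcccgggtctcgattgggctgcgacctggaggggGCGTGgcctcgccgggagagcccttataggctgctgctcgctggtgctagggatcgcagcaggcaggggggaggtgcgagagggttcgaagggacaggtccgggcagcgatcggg
Egln3: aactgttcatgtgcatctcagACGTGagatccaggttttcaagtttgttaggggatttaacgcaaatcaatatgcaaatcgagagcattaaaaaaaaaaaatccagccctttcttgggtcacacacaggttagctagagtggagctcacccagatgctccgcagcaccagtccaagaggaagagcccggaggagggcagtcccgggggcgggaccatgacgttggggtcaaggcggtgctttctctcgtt
Pfkp: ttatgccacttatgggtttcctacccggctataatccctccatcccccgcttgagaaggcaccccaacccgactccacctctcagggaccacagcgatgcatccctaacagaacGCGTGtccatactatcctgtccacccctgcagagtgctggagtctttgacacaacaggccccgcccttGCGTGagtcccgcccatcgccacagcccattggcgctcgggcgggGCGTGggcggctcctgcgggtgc
Slc2a1: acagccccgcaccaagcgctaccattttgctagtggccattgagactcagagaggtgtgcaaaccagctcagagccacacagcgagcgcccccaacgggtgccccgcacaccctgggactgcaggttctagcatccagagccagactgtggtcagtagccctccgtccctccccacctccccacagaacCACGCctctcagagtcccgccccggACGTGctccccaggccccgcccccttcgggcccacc
P4ha2: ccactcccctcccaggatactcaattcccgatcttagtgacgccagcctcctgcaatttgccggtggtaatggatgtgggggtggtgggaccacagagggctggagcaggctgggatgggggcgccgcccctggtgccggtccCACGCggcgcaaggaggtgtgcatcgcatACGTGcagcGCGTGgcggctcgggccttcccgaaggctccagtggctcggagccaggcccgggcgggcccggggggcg

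Genes that neighbor the 37 members in metabolism or in the HIF response were followed as a list of 59, of which 52 were tested for MAMs. Of these, 20 were lower and 6 higher in F4/80high MAMs, with a median log2 fold change of -0.20. Over all genes tested, 27.1% were called lower and 27.8% higher, with a median of 0.01. Bhlhe40, a transcriptional repressor induced by hypoxia, stood at 898, 605 and 698 CPM in F4/80low and 58.6, 45.3 and 36.8 CPM in F4/80high MAMs, a log2 fold change of -3.97 ± 0.22 (SE, adjusted p = 5.2e-06). Ndrg1, a stress-response gene, stood at 98.5, 67.96 and 196 CPM in F4/80low and 26.1, 28.4 and 33.8 CPM in F4/80high MAMs, a log2 fold change of -2.03 ± 0.35 (SE, adjusted p = 0.00176). Nfil3, a transcription factor of lymphoid and myeloid cells, stood at 182, 105 and 192 CPM in F4/80low and 61.2, 35.2 and 48.2 CPM in F4/80high MAMs, a log2 fold change of -1.73 ± 0.26 (SE, adjusted p = 0.000963). All 3 were lower in every F4/80high library. Pygl, which releases glucose units from glycogen, stood at 123, 123 and 171 CPM in F4/80low and 48.9, 44.9 and 46.3 CPM in F4/80high MAMs, a log2 fold change of -1.57 ± 0.14 (SE, adjusted p = 5.25e-05). Plod1, which hydroxylates collagen lysines, rose from 67.2, 70.05 and 84.9 CPM to 264, 261 and 285 CPM, a log2 fold change of 1.87 ± 0.11 (SE, adjusted p = 6.9e-06), and Angptl4, an inhibitor of lipoprotein lipase, from 0.427, 1.02 and 1.47 CPM to 3.33, 3.01 and 2.27 CPM, a log2 fold change of 1.57 ± 0.42 (SE, adjusted p = 0.0155). Of the 18 HIF targets in this list 9 were lower and 2 higher, and of the 7 pentose phosphate genes 3 were lower.

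In lymphocytes the members were compared between populations in 1 fit of all 12 libraries. The clearest contrast set LM CD49a+ NK cells against MFL ILC1, which share CD49a but differ in site and in CD49b. Of the 33 members tested, 9 were higher in LM CD49a+ NK cells (Pfkp, Tpi1, Gapdh, Pgam1, Eno1, Ldha, Hif1a, Vegfa and Ddit4) and 0 were lower, where 2.29% of the 13594 genes tested were called higher and 1.29% lower by edgeR. By an unadjusted p under 0.05, 1913 genes differed. The median log2 fold change (LM CD49a+ NK cells over ILC1) was 0.81 over the members and -0.07 over all genes. None of the 9 members overlapped between the groups, and no count of overlap over all genes is given here.

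**Figure D3:**
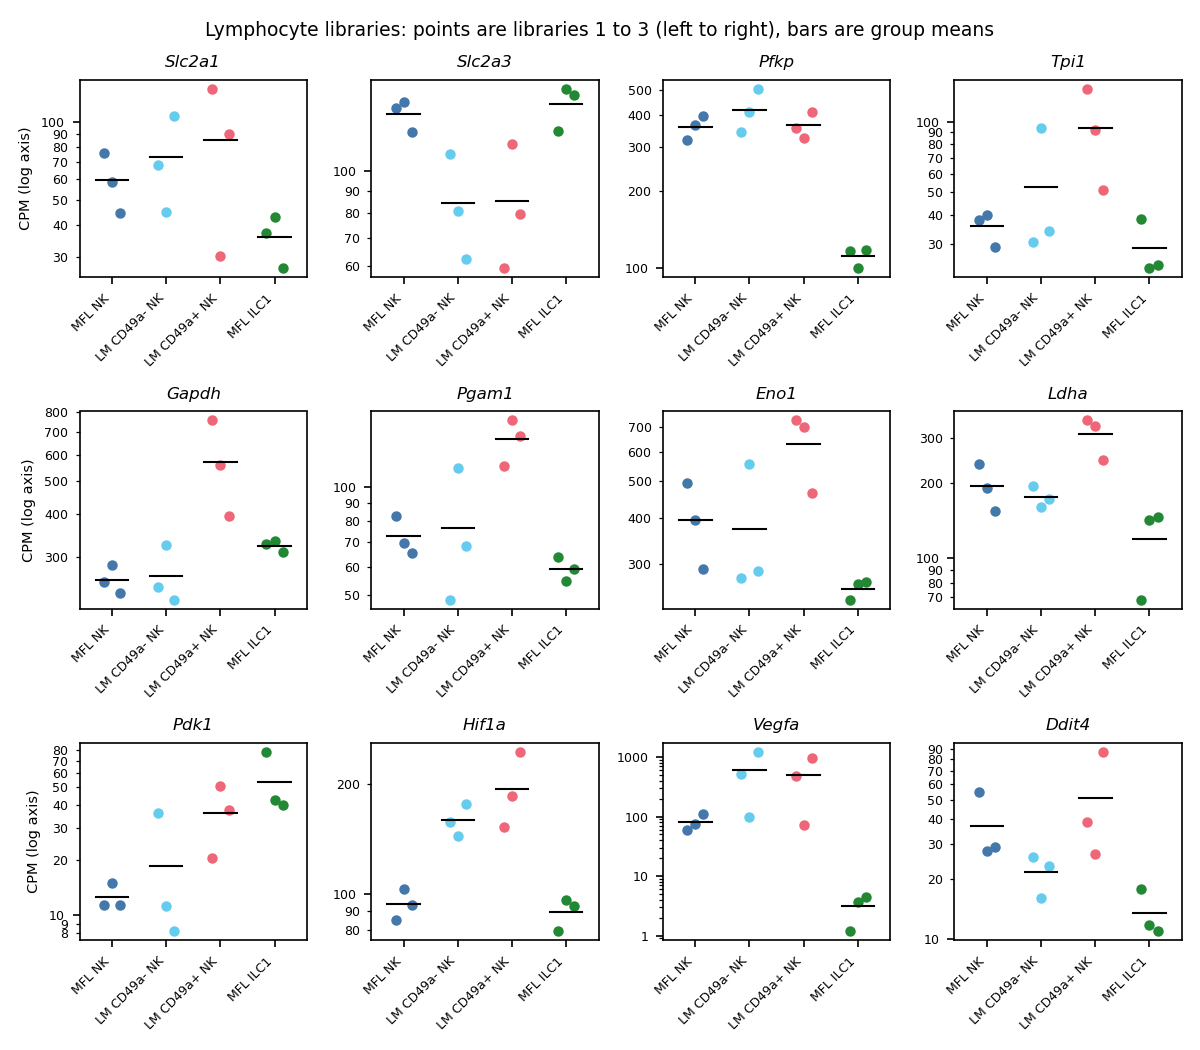
CPM of 12 members in each of the 12 lymphocyte libraries, each panel on its own log axis, with a point per library and the group mean as a bar. Vegfa runs from 1.19 CPM in an ILC1 library to 1216 CPM in a LM CD49a- NK library, and Pfkp is lower in the 3 ILC1 libraries than in the 9 NK libraries.

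Pfkp stood at 355, 325 and 409.6 CPM in LM CD49a+ NK cells and 116, 99.8 and 117 CPM in MFL ILC1, a log2 fold change of 1.71 ± 0.22 (SE, adjusted p = 0.000173). Vegfa stood at 488, 72.5 and 952 CPM and 1.19, 3.73 and 4.45 CPM, a log2 fold change of 7.33 ± 0.97 (SE, adjusted p = 0.000268). LM CD49a+ replicate 2 was the low one for Vegfa and was still above every ILC1 library. Hif1a stood at 153, 185 and 244 CPM and 79.2, 96.1 and 92.8 CPM, a log2 fold change of 1.12 ± 0.24 (SE, adjusted p = 0.0136), and Ldha at 353, 334 and 245 CPM and 68.6, 142 and 147 CPM, a log2 fold change of 1.38 ± 0.28 (SE, adjusted p = 0.0118). These 4 calls were kept in all 12 omissions of 1 library. Eno1 stood at 729, 699 and 465 CPM and 241, 265 and 268 CPM, a log2 fold change of 1.29 ± 0.29 (SE, adjusted p = 0.0199), and lost its call without ILC1 replicate 1 (1.24, adjusted p = 0.111).

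The other 4 calls against ILC1 were less stable. Tpi1 stood at 138, 92.5 and 51.1 CPM in LM CD49a+ NK cells and 38.5, 23.7 and 24.4 CPM in ILC1, a log2 fold change of 1.70 ± 0.47 (SE, adjusted p = 0.075), and lost its call in 7 of 12 omissions, without any 1 of MFL NK replicates 1 and 2, LM CD49a+ NK replicates 1 and 2 or ILC1 replicates 1, 2 and 3 (adjusted p 0.103 to 0.313). Pgam1 stood at 114, 152 and 138 CPM and 63.9, 54.9 and 58.9 CPM, a log2 fold change of 1.19 ± 0.31 (SE, adjusted p = 0.05), and lost it in 5, without any 1 of LM CD49a+ NK replicates 2 and 3 or ILC1 replicates 1, 2 and 3 (adjusted p 0.122 to 0.221). Gapdh (chr6:125135289-125143518 on the minus strand of GRCm39) stood at 755, 559 and 396 CPM and 328, 335 and 309 CPM, a log2 fold change of 0.81 ± 0.24 (SE, adjusted p = 0.0973), and lost it in 8, without any 1 of MFL NK replicates 1, 2 and 3, LM CD49a+ NK replicates 1 and 2 or ILC1 replicates 1, 2 and 3 (adjusted p 0.139 to 0.388), and with only the compared groups in the fit (adjusted p = 0.134). Ddit4 stood at 38.8, 26.9 and 87.3 CPM and 17.9, 11.8 and 10.99 CPM, a log2 fold change of 1.91 ± 0.55 (SE, adjusted p = 0.0875), and lost its call in 8, without any 1 of MFL NK replicates 1, 2 and 3, LM CD49a+ NK replicates 1 and 3 or ILC1 replicates 1, 2 and 3 (adjusted p 0.11 to 0.409), as well as with only the compared groups (adjusted p = 0.116) and with the replicate number as a block (adjusted p = 0.12). The count of members called higher ranged from 4 (without ILC1 replicate 1) to 9. Dissociation genes summed to 6549 to 11619 CPM in LM CD49a+ NK cells and 4361 to 7024 CPM in ILC1 (3 of 12 called higher), and cell cycle genes to 1099 to 1689 and 410 to 557 CPM (2 of 15). Their part in the members' differences was not tested.

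LM CD49a+ NK cells were next set against MFL NK cells. Gapdh, Gpi1 and Hif1a were higher and 0 members were lower, with a background of 0.427% of genes called higher and 0.221% lower (88 genes in all, and 1324 at an unadjusted p under 0.05). Gapdh stood at 253, 283 and 235 CPM in MFL NK cells against 755, 559 and 396 CPM in LM CD49a+ NK cells, a log2 fold change of 1.15 ± 0.24 (SE, adjusted p = 0.0438). Gpi1 stood at 166, 170.3 and 154 CPM and 349.6, 304 and 318 CPM, a log2 fold change of 0.99 ± 0.22 (SE, adjusted p = 0.0662). Hif1a stood at 85.1, 103 and 93.1 CPM and 153, 185 and 244 CPM, a log2 fold change of 1.05 ± 0.23 (SE, adjusted p = 0.0662). The groups did not overlap for any of the 3, again with no count over all genes beside it. None of these calls held in all 12 omissions, and without any 1 of the MFL NK libraries 0 members were called. Gpi1 lost its call without any 1 of MFL NK replicates 1, 2 and 3, LM CD49a+ NK replicates 1 and 3 or ILC1 replicate 2 (adjusted p 0.112 to 0.376). The calls were lost for Gapdh without any 1 of MFL NK replicates 1, 2 and 3 or LM CD49a+ NK replicate 1 (adjusted p 0.149 to 0.265) and for Hif1a without any 1 of MFL NK replicates 1, 2 and 3, LM CD49a+ NK replicate 3 or ILC1 replicates 2 and 3 (adjusted p 0.116 to 0.37). With only the compared groups in the fit, both lost their calls (adjusted p = 0.117 each).

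Vegfa stood at 60.2, 74.7 and 108 CPM in MFL NK cells and was, as above, higher in LM CD49a+ replicates 1 and 3 but not in replicate 2. The groups therefore overlapped, and the log2 fold change of 2.64 ± 0.77 (SE, adjusted p = 0.237) was not called by edgeR. It was called without the filter on low counts (2.63, adjusted p = 4.86e-18), without LM CD49a+ replicate 2 (3.14, adjusted p = 0.0466) and without LM CD49a- replicate 2 (2.63, adjusted p = 0.0687). The value without the filter came from the same overlapping libraries and nearly the same log2 fold change as the main fit. It is not to be taken at face value. The median log2 fold change of the 33 members tested was 0.68 against -0.04 over all genes, with 27 members above 0 and 6 below. MFL NK cells held 733 to 911 CPM of the cell cycle list, against 1099 to 1689 CPM in LM CD49a+ NK cells, with 0 of 15 genes called. Dissociation genes summed to 4983 to 6445 CPM in the former and to 6549 to 11619 CPM in the latter, with 2 of 12 called higher, the heat shock genes Hspa1a (3.34, adjusted p = 0.0385) and Hspa1b (3.47, adjusted p = 0.00858). The part of these lists in the members' differences was not tested.

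Between CD49a+ and CD49a- NK cells of the metastasis, which share site and dissociation, 0 of 33 members were called by edgeR, and 6 had an unadjusted p under 0.05. Only 0.0662% of genes were called higher and 0.0736% lower (19 in all, with 1579 at an unadjusted p under 0.05). Gapdh came closest, at 245, 324 and 225 CPM in LM CD49a- and 755, 559 and 396 CPM in LM CD49a+ NK cells, a log2 fold change of 1.11 ± 0.24 (SE, adjusted p = 0.133), with no overlap. It was called by DESeq2 (adjusted p = 0.00321), without the filter on low counts (adjusted p = 0.00602) and with the replicate number as a block (adjusted p = 0.0994), and also without LM CD49a+ replicate 3 (1.31, adjusted p = 0.0485), LM CD49a- replicate 2 (1.28, adjusted p = 0.0646) or LM CD49a- replicate 3 (1.01, adjusted p = 0.0995). Limma-voom called 0 members. Log2 fold changes were 0.83 ± 0.28 for Ldha, 0.95 ± 0.36 for Pgk1, 0.82 ± 0.30 for Pgam1 and 0.76 ± 0.29 for Eno1, with adjusted p of 0.349 for Ldha and 0.375 for the other 3.

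The library values behind these differences show where the spread lies. Ldha stood at 194, 159.9 and 172 CPM in LM CD49a- and 353, 334 and 245 CPM in LM CD49a+ NK cells, without overlap. Pgam1 stood at 48.6, 112 and 68.6 CPM and 114, 152 and 138 CPM, also without overlap. Pgk1 stood at 54.7, 96.8 and 42.5 CPM and 156, 134 and 84.7 CPM, and Eno1 at 275, 557 and 287 CPM and 729, 699 and 465 CPM. LM CD49a- replicate 2 was the highest of its group for Pgam1, Pgk1 and Eno1 and reached into the CD49a+ range for the last 2. Of the 33 members tested, 30 had a log2 fold change above 0 and 3 below, with a median of 0.50 over the members and 0.01 over all genes. The cell cycle genes had 14 of 15 above 0 and 0 called.

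**Figure D4:**
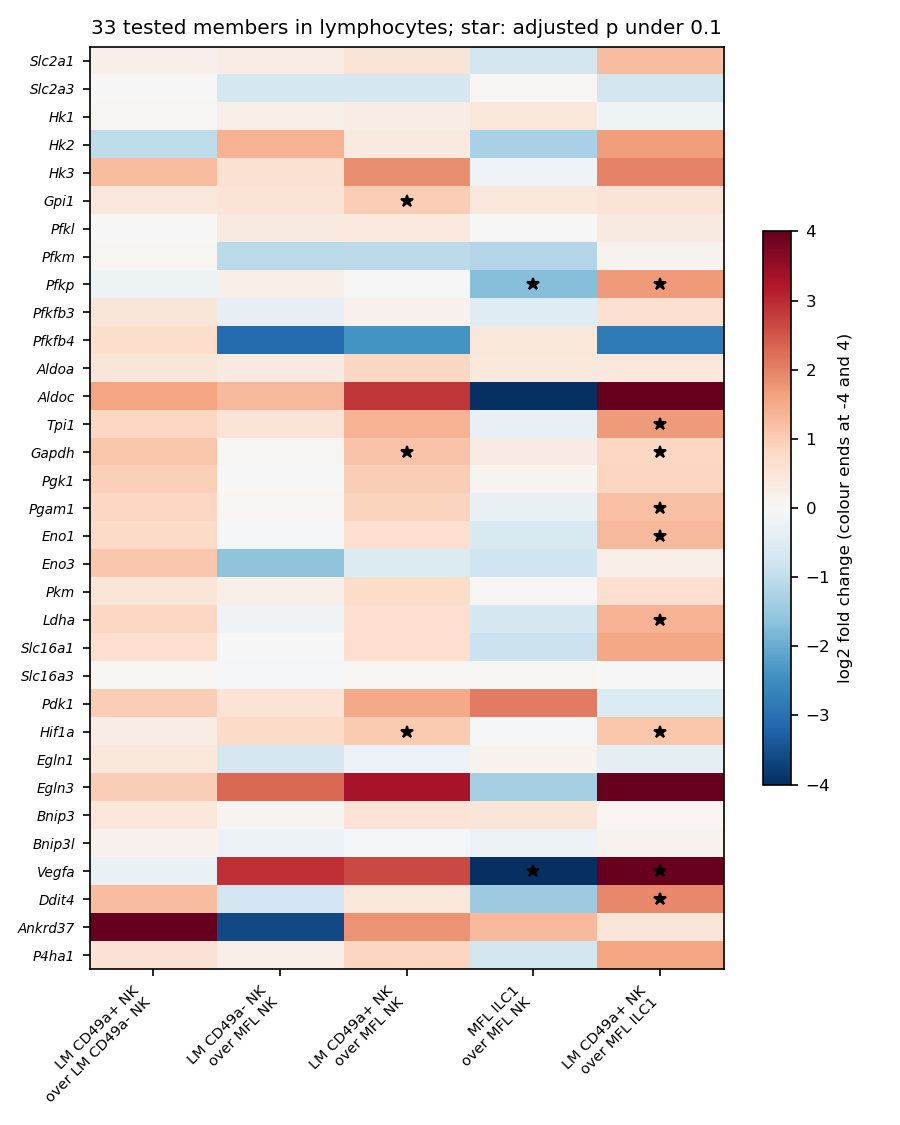
Log2 fold changes of the 33 tested members (rows) in 5 lymphocyte comparisons (columns) as colors that end at -4 and 4, with a star on each called member. LM CD49a+ NK cells over MFL ILC1 has 9 stars, LM CD49a+ over MFL NK cells 3, MFL ILC1 over MFL NK cells 2 and each of the other columns 0, and the dark cells of Aldoc, Ankrd37 and Pfkfb4 without a star belong to members at 0 in some libraries.

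LM CD49a- NK cells against MFL NK cells also gave 0 called members, where 0.0662% of genes were called higher and 0.00736% lower (10 in all, with 914 at an unadjusted p under 0.05). Hif1a stood at 85.1, 103 and 93.1 CPM in MFL and 157, 144 and 176 CPM in LM CD49a- NK cells, without overlap, a log2 fold change of 0.76 ± 0.23 (SE, adjusted p = 0.549). Vegfa stood at 519, 96.9 and 1216 CPM in LM CD49a- NK cells, a log2 fold change of 2.91 ± 0.78 (SE, adjusted p = 0.33). Its replicate 2 lay inside the range of MFL NK cells, and without that library Vegfa was called (3.41, adjusted p = 0.0452). With all libraries, limma-voom (2.83, adjusted p = 0.0234) and edgeR without the filter on low counts (2.92, adjusted p = 8.8e-22) also called it. The latter value rests on the same libraries and nearly the same log2 fold change as the main fit, and is not to be taken at face value. The median log2 fold change was 0.11 over the members and -0.09 over all genes. MFL NK cells held 4983 to 6445 CPM of the dissociation genes, against 6444 to 14118 CPM in LM CD49a- NK cells, with 2 of 12 called higher. Of the macrophage markers, Adgre1 and C1qc were at 0 in all LM NK libraries, with and without CD49a. The sum of the macrophage list, which includes Itgam of NK cells, was 784 to 921 CPM in LM CD49a- NK cells, 136 to 359 CPM in LM CD49a+ NK cells and 780.5 to 1176 CPM in MFL NK cells.

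In the MFL, ILC1 differed from NK cells in 2 members, both lower in ILC1, and 1.68% of all genes were called lower and 1.38% higher. Pfkp stood at 318, 366 and 394 CPM in MFL NK cells against 116, 99.8 and 117 CPM in ILC1, a log2 fold change of -1.69 ± 0.22 (SE, adjusted p = 0.000108). Vegfa stood at 60.2, 74.7 and 108 CPM and 1.19, 3.73 and 4.45 CPM, a log2 fold change of -4.70 ± 0.87 (SE, adjusted p = 0.00417). Neither overlapped, and both calls were kept in all 12 omissions. Pdk1 stood higher in ILC1, at 78.01, 42.4 and 40.3 CPM against 11.4, 15.04 and 11.5 CPM in MFL NK cells, a log2 fold change of 2.08 ± 0.61 (SE, adjusted p = 0.103), and was not called by edgeR with all libraries. It was called by DESeq2 (adjusted p = 0.0146), by limma-voom (adjusted p = 0.000128), with RLE size factors (adjusted p = 0.0955), without the filter on low counts (adjusted p = 0.0563) and with only the compared groups in the fit (adjusted p = 0.00434). Omitting a library also gave the call, without LM CD49a- replicate 1 (adjusted p = 0.032), 2 (adjusted p = 0.057) or 3 (adjusted p = 0.0809) and without LM CD49a+ replicate 1 (adjusted p = 0.0913). Ldha stood at 237, 189.7 and 154 CPM in MFL NK cells, a log2 fold change of -0.70 ± 0.28 (SE, adjusted p = 0.381) in ILC1, and was called by limma-voom alone (-0.39, adjusted p = 0.0846).

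The interaction asks whether CD49a+ and CD49a- cells differ in another way in LM than in MFL, where the CD49a+ cells are ILC1. It was positive for Pfkp, at 1.49 ± 0.30 (SE, adjusted p = 0.0277), and for Vegfa, at 4.42 ± 1.10 (SE, adjusted p = 0.0905), the only 2 members called, beside 0.625% of all genes called higher and 0.405% lower. Pfkp stood at 343, 409 and 505 CPM in LM CD49a- and 355, 325 and 409.6 CPM in LM CD49a+ NK cells, in overlapping ranges, while in the MFL it was lower in each ILC1 library than in any NK library. The Pfkp call was lost without ILC1 replicate 2 (1.42, adjusted p = 0.112) and the Vegfa call in 9 of 12 omissions, without any 1 of MFL NK replicates 1, 2 and 3, LM CD49a- NK replicate 1, LM CD49a+ NK replicates 1 and 3 or ILC1 replicates 1, 2 and 3 (adjusted p 0.118 to 0.295), and limma-voom gave 3.19 with adjusted p = 0.64 for Vegfa. Ldha had an interaction of 1.52 ± 0.40 (SE, adjusted p = 0.115), and was called by DESeq2 (1.48, adjusted p = 0.0364) and without the filter (1.49, adjusted p = 0.0168). All of these lymphocyte comparisons share libraries and are not separate evidence of each other.

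Glucose transporters, Pkm and the low members were not called in any lymphocyte comparison. Slc2a1 stood at 37.1, 42.96 and 27.1 CPM in ILC1, at 76.03, 58.7 and 44.3 CPM in NK cells of the MFL, at 68.3, 44.5 and 106 CPM in LM CD49a- NK cells and at 134, 30.1 and 89.97 CPM in LM CD49a+ NK cells. Slc2a3 stood at 123, 155 and 149.6 CPM in ILC1, at 139.9, 144 and 123 CPM in NK cells of the MFL, at 109.6, 80.5 and 62.5 CPM in LM CD49a- NK cells and at 59.5, 116 and 79.6 CPM in LM CD49a+ NK cells. Pkm stood at 272, 290.4 and 292 CPM in ILC1, at 299.7, 291 and 238 CPM in NK cells of the MFL, at 207, 466 and 298 CPM in LM CD49a- NK cells and at 531, 492 and 345 CPM in LM CD49a+ NK cells. The ranges of Slc2a1 overlapped among the NK populations, and each Slc2a3 library of LM was below the lowest MFL library. Egln3 reached 11.1, 0.156 and 20.03 CPM in LM CD49a+ and 8.47, 0 and 7.33 CPM in LM CD49a- NK cells and at most 1.84 CPM in the MFL. Adm was at 0 in all 12 libraries, and Ldhb was at 0 in all 9 NK libraries.

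Isozyme choice is compared on the length-scaled level, CPM per kilobase of exon. Hk1 supplied 90.4% ± 4.3 of the hexokinase transcripts in MFL NK cells, 83.6% ± 6.9 in LM CD49a- NK cells, 81.2% ± 1.4 in LM CD49a+ NK cells and 94.9% ± 0.96 in ILC1 (SD, n = 3 each). Pfkp supplied 81.1% ± 2.7, 81.8% ± 2.1 and 80.2% ± 9.6 of the phosphofructokinase transcripts in the NK populations and 60.4% ± 5.9 in ILC1, where Pfkl supplied 35.3% ± 5.1. Slc2a3 led the glucose transporters in MFL NK cells (59.2% ± 5.1) and ILC1 (71.5% ± 5.3), and Slc2a1 averaged 56.6% ± 14 in LM CD49a- and 57.4% ± 25 in LM CD49a+ NK cells, a spread too wide to order the pair. Slc16a1 led the lactate carriers in all 4 lymphocyte populations, from 64.6% ± 26 in ILC1 to 87.7% ± 14 in LM CD49a- NK cells, whereas Slc16a3 led in both MAM subsets. Bnip3l supplied 94.7% ± 3.4 of the mitophagy receptor transcripts in MFL NK cells, 96.05% ± 6.8 in LM CD49a- NK cells, 92.2% ± 12 in LM CD49a+ NK cells and 93.4% ± 3.5 in ILC1, and 48.8% ± 9.9 and 51.8% ± 4.6 in F4/80low and F4/80high MAMs. Lymphocytes and MAMs were sequenced with different library kits and normalized apart, and no test was made between them.

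**Figure D5:**
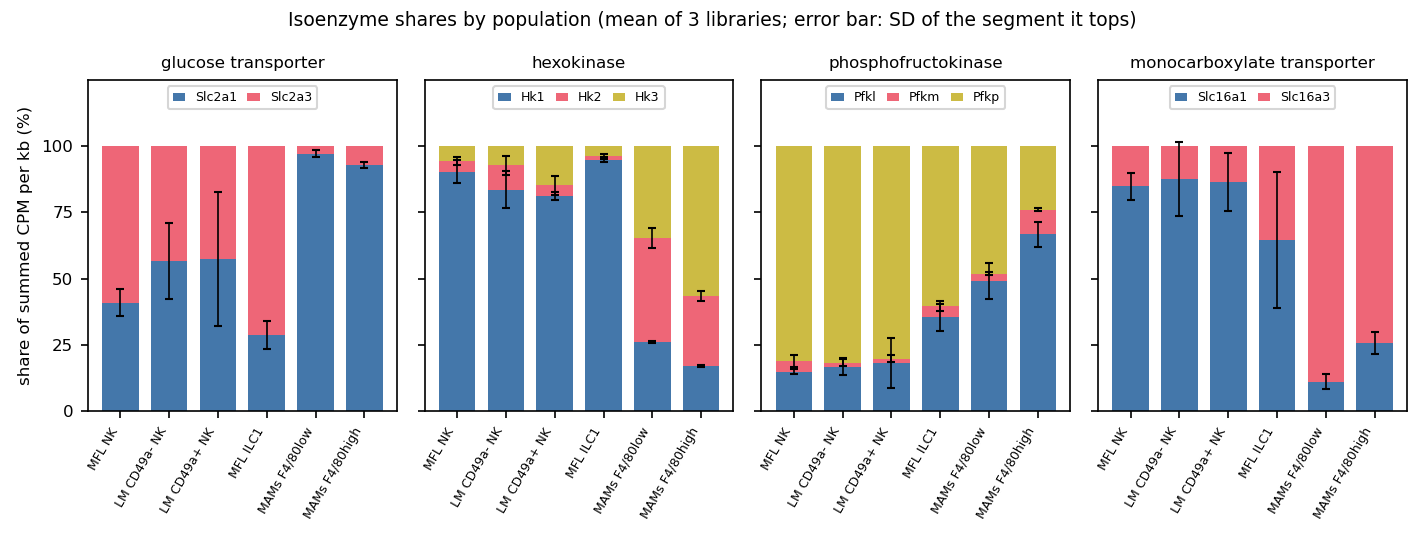
Mean share of each isozyme in the length-scaled transcripts of its family (percent, stacked to 100) for the 6 populations, 3 libraries each, with the SD as the error bar of the segment it tops. Hk1 fills most of the hexokinase bar in the 4 lymphocyte populations, and Hk3 holds the largest part in F4/80high MAMs.

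By length-scaled level, Gapdh led the members of F4/80low MAMs at 479.8 ± 102 CPM per kilobase, followed by Pgam1 at 312 ± 65.5, Pgk1 at 301 ± 96.8, Aldoa at 256 ± 78.7 and Ldha at 247 ± 57.00 (SD, n = 3), and each of the last 4 lay within 1 SD of its neighbor in this order. With the longest transcript as the length, Gapdh again led (857), and the order after it was Aldoa (475), Eno1 (410.3), Ldha (370.4), Pgk1 (370.2) and Pgam1 (357). Copies named after Aldoa, Tpi1, Gapdh, Pgk1, Pgam1, Eno1, Ldha, Ldhb and Bnip3l averaged at most 2.55 CPM each. Pseudogenes under unrelated symbols were not counted in this, and values of these members are uncertain by what the counting assigned to their copies. In lymphocytes 49 of the 59 related genes were tested. Pygl was higher in ILC1 (19.1, 55.4 and 59.3 CPM) than in MFL NK cells (8.57, 4.72 and 9.40 CPM), a log2 fold change of 2.56 ± 0.73 (SE, adjusted p = 0.0901), and lost its call in 5 of 12 omissions, without any 1 of MFL NK replicates 1, 2 and 3 or ILC1 replicates 2 and 3 (adjusted p 0.25 to 0.465), and with the replicate number as a block (2.64, adjusted p = 0.114). Wsb1, a ubiquitin ligase adaptor induced by hypoxia, was higher in LM CD49a+ NK cells (154, 81.4 and 178 CPM) than in ILC1 (52.7, 65.00 and 51.6 CPM), a log2 fold change of 1.29 ± 0.36 (SE, adjusted p = 0.0816), and lost its call in 6, without any 1 of MFL NK replicate 2, LM CD49a+ NK replicates 1 and 3 or ILC1 replicates 1, 2 and 3 (adjusted p 0.111 to 0.286). By edgeR 0 of the 49 were called in the other 4 lymphocyte comparisons.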

How the data were processed

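Cells were sorted by flow cytometry and sequenced in bulk, lymphocytes with the SMARTer Stranded Total RNA Pico kit (v2) and MAMs with a directional poly(A) kit. Trim Galore was used by the authors for trimming and Salmon for quantification against GRCm39 (v1.5.0 for lymphocytes, v1.10.0 for MAMs). Both deposited tables give unnormalized estimated counts by gene, 54309 for lymphocytes and 13759 for MAMs, and no MAM gene summed to less than 37 counts. The counting can shift reads between near-identical copies. The share of mitochondrial, ribosomal and small RNA was 3.59% to 15.2% in lymphocyte libraries and 1.14% to 1.82% in MAM libraries.

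Here, counts were rounded and analysed in R v4.3.3 with edgeR v4.0.16 (filterByExpr, TMM, quasi-likelihood test, Benjamini-Hochberg adjustment over all genes tested), in 1 fit of the 12 lymphocyte libraries and 1 of the 6 MAM libraries. A gene was called at an adjusted p under 0.1. This left 13594 lymphocyte genes and 13759 MAM genes. DESeq2 v1.42.0, limma v3.58.1 (voom with quality weights), RLE size factors, no filter, an adjusted p under 0.05, a replicate block, a fit of only the groups compared and the omission of each library were alternatives. Standard errors were derived from the log2 fold change and the F value and are approximate. CPM used TMM-scaled library sizes, and CPM per kilobase used the union of exons. Figures were drawn with Python v3.11.15 and matplotlib v3.10.9.

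On simulated counts, 51.5% (lymphocytes) and 99.5% (MAMs) of 200 genes changed by 3 on the log2 scale were called. The lymphocyte simulation covered only LM CD49a+ against LM CD49a- NK cells, with a spread per gene shared by all populations. The LM populations varied more than the MFL ones, so the lymphocyte share may be too high for them. With 3 libraries against 3, an exact permutation test cannot go below p = 0.1, so no single-gene permutation test was used. The members and the other gene lists were chosen with earlier results of these data known. Each member is given with its library values where it was called, beside Hif1a, Gapdh, Pkm, Ldha, Pdk1, Vegfa, Slc2a1, Slc2a3 and the member leading its role per length. Other pathway genes are named where called with a log2 fold change above 1 in size, at most 6 per comparison. Uncalled members with the smallest unadjusted p were named after their values were seen.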

Additional observations from a re-analysis of the deposited data

Results flagged for a closer look

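For 2 members the difference between CD49a+ and CD49a- cells was not the same in LM as in MFL, by the interaction term of edgeR's quasi-likelihood test. The interaction of Pfkp, a subunit of phosphofructokinase, was 1.49 on the log2 scale, and that of the growth factor gene Vegfa was 4.42. In the MFL both genes were lower in every ILC1 library than in every NK library, while in LM the ranges of CD49a+ and CD49a- NK cells overlapped for both. The CD49a+ cells are ILC1 in the MFL and NK cells in LM, so that site and cell type cannot be told apart in this term.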

How the results depend on the processing

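For the LM subsets, 1 member (Gapdh) was called higher by DESeq2, without the low-count filter and with the replicate block, against 0. For LM CD49a+ against MFL NK cells, 10 were higher by limma-voom, 1 at an adjusted p under 0.05 and 1 with only the groups compared, against 3. For LM CD49a- against MFL NK cells, 1 was higher by limma-voom and 1 without the filter, against 0. For ILC1 against MFL NK cells, 1 was higher by DESeq2, RLE, no filter and only the groups compared, and 4 higher and 9 lower by limma-voom, against 0 and 2. For the interaction, 5 were higher by DESeq2, 4 without the filter and 1 at 0.05, against 2. The cause was not tested.

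Omitting 1 library gave 0 to 1 members higher within LM, 0 to 4 for LM CD49a+ and 0 to 1 for LM CD49a- against MFL NK cells, 0 to 1 higher and 2 lower for ILC1 against MFL NK cells, 4 to 9 higher and 0 to 1 lower (Slc2a3) for LM CD49a+ NK cells against ILC1, 0 to 4 higher for the interaction, and 21 to 28 lower and 3 to 5 higher for MAMs. Of the values of single genes under these omissions, 493 kept side and direction, 81 lost a call, 14 gained one and 0 reversed. Under the other alternatives 404 kept both, 19 lost a call, 17 gained one and 0 reversed.

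The study sorted the lymphocyte pools on 3 occasions, but no label ties a replicate number to a sort. Same-numbered libraries correlated by -0.045 to 0.098 in lymphocytes and by -0.015 to 0.172 in MAMs, and the numbers were not used as pairs. The replicate block added Gapdh within LM (adjusted p = 0.0994) and P4ha1 in MAMs (adjusted p = 0.0843), and ended the calls of Ddit4 against ILC1 (adjusted p = 0.12) and of Pygl in ILC1 against MFL NK cells (adjusted p = 0.114).

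Over all genes, calls within LM went from 19 to 543 by DESeq2, 0 by limma-voom, 200 without the filter and 3 with only the groups compared. For LM CD49a+ against MFL NK cells they went from 88 to 365, 307 and 371 by the first 3, for LM CD49a- against MFL NK cells from 10 to 161, 104, 158 and 3, and for ILC1 against MFL NK cells from 416 to 667 by DESeq2, 2645 by limma-voom and 1228 with only the groups compared. For LM CD49a+ NK cells against ILC1 they went from 486 to 1010 by DESeq2, 935 by limma-voom and 774 without the filter, and for the interaction from 140 to 349 by DESeq2 and 264 without the filter. For LM CD49a- against MFL NK cells the median log2 fold change of all genes was -0.356 by limma-voom and -0.211 with the replicate block, against -0.09, and limma-voom moved that median by -0.229 for LM CD49a+ against MFL NK cells and by -0.213 against ILC1.

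With the longest transcript as length, shares were 88.1% and 96.9% for Hk1 in LM CD49a+ NK cells and ILC1, 31.0% for Hk2 in F4/80low, 51.9% for Hk3 in F4/80high MAMs, 83.9% for Pfkp in LM CD49a- NK cells, and 97.2%, 96.9%, 97.4% and 98.8% for Eno1 in MFL NK cells, ILC1, F4/80low and F4/80high MAMs. LM libraries varied most, which limits what 3 libraries can show.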

Other observations

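F4/80low replicate 3 was the highest of its group for 30 of the 37 members (81.1%), against 31.6% of all genes tested, a pattern chosen after the values were seen. The same library was highest for Slc2a1, Vegfa, Egln3, Bnip3, Ddit4 and Ankrd37, while Pfkp and Aldoc were highest in F4/80low replicate 1.

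In both LM populations, replicate 2 was the lowest of its group for Slc2a1 and Vegfa, which was also noticed after the values were seen. Replicate 2 was lowest for 12 of 33 members (36.4%) in each population. Over all genes tested, the shares were 34.6% for LM CD49a- and 23.2% for LM CD49a+ NK cells. The same replicate was the highest for 9 members in the former and for 8 in the latter. Vegfa was at 96.9 CPM in LM CD49a- replicate 2 and at 72.5 CPM in LM CD49a+ replicate 2, against 488 CPM or more in the other 4 LM libraries. Slc2a1 was at 44.5 and 30.1 CPM in these libraries and at 68.3 CPM or more in the other 4. No label says that libraries with the same number came from the same sort.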
